A study of Mus musculus with 3 samples.

Results

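The 9 genes Nrxn2, Nrxn3, Nlgn1, Nlgn2, Nlgn3, Lrrtm1, Lrrtm2, Lrrtm3 and Lrrtm4 encode neurexins, neuroligins and leucine-rich repeat transmembrane neuronal proteins (LRRTMs), which join nerve cells across the synapse. They were taken by name, 9 of the 21627 protein-coding gene spans on chromosomes 1 to 19 and X. For each gene the accessible regions (peaks) over its span plus 5 kb on each side, called its window below, were counted in build mm10. Chromatin accessibility had been profiled in nuclei of whole brain of C57BL6 mice by sciATAC-seq. In this assay a transposase cuts and tags open chromatin, and each nucleus gets its barcode in steps of pooling and splitting. Nuclei were tagged in 96 wells and spread over a chip of 5184 nanowells for the indexed PCR. There is 1 library from each of 3 versions of the preparation, sciATACv1, sciATACv2 and sciATACv3 (v1, v2 and v3 below), all of the same tissue and strain. The labels give neither what sets the versions apart nor the age, sex or number of the mice.

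Neurexins sit in the presynaptic membrane and bind partners on the postsynaptic side. Neuroligins and LRRTMs are such partners, and through scaffold proteins inside the cell they help to place the receptors for glutamate or GABA opposite the release site. Neurexin genes are known for more than 1 promoter, of which an upstream one gives the long alpha forms and an internal one the short beta forms. Neuroligin 1 is known from excitatory synapses, neuroligin 2 mainly from inhibitory synapses and neuroligin 3 from both kinds, while LRRTMs are best known at excitatory synapses.

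Each deposited list gives peak positions only, so a gene is described here by how many peaks it holds, how wide they are and where they lie, summed over all cell types of the brain. Fewer nuclei of a type and less accessibility per nucleus cannot be told apart, and the read depth is unknown. The v1 list has 622754 peaks, the v2 list 850991 and the v3 list 512023. Of 21 marker genes of neurons, astrocytes, oligodendrocytes, microglia and endothelium, 20 were met by a peak at an end of the gene, within 1 kb, in v1, and 21 were in v2 and v3 each, against 81.0%, 84.8% and 80.6% of all protein-coding genes. Of 4 genes of other tissues, 3 had one in each library, so a peak at an end does not by itself set brain genes apart. With 1 library a version the spread between replicates is unknown and no test between versions was made. Intervals are 95% and cover counting error only.

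Together the 9 windows had 1896 (v1), 2286 (v2) and 1802 (v3) peaks, which is 0.304%, 0.269% and 0.352% of each list. The spans range from 6.02 kb for Lrrtm2 to 1612 kb for Nrxn3, and the peak numbers broadly follow them. Density was therefore read against protein-coding genes whose window length lay within 20% of the member's. In v1, 8 of the 9 genes had more peaks per kb of window than the median gene of like length, in v2 also 8 and in v3 all 9. Of all protein-coding genes, 50.3%, 50.5% and 50.4% lay above that median. The exceptions were Lrrtm4 in v1 and Lrrtm1 in v2. The median density of the 9 genes was 0.499 peaks per kb of window in v1, 0.591 in v2 and 0.466 in v3, against 0.297, 0.426 and 0.266 over all protein-coding genes of any length.

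**Figure D1:**
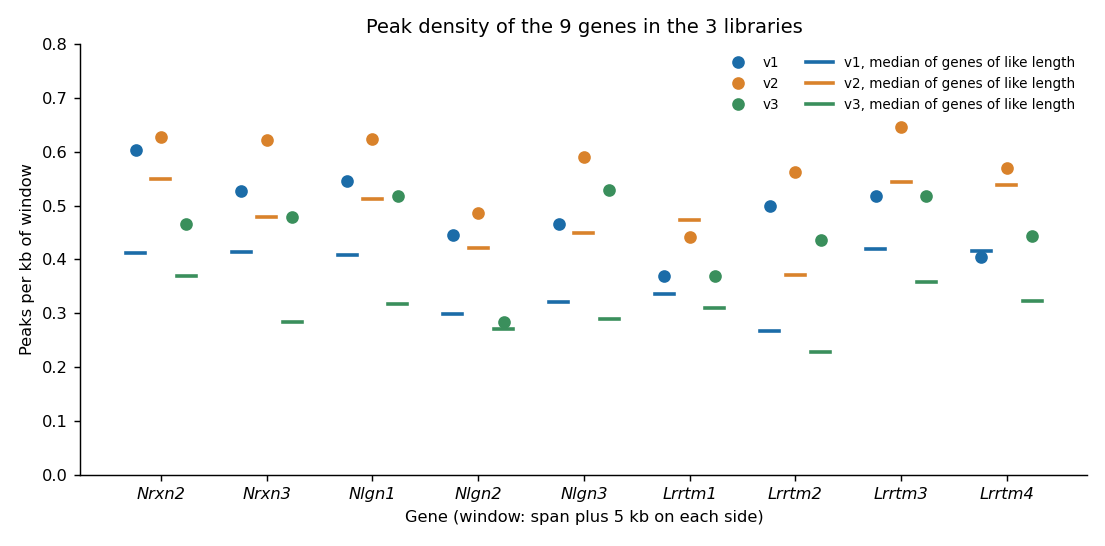
Peaks per kb of window (vertical axis) of the 9 genes in v1, v2 and v3; dots are the genes and short lines the median of protein-coding genes of like length in the same library. Lrrtm4 in v1 and Lrrtm1 in v2 are the dots below their line.

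Nrxn3, the largest of the genes, spans chromosome 12, 88722701 to 90334935, on the forward strand. Peaks in its window numbered 856, 1008 and 778 by version, or 0.531, 0.625 and 0.483 per kb of span. Per kb of window these are 0.528, 0.621 and 0.480, against medians of 0.413, 0.478 and 0.284 for the 16 genes of like length, itself among them. Peaks covered 40.6%, 52.3% and 47.5% of the window in v1, v2 and v3. The non-coding transcript Gm40537 lies inside the gene, with 19, 21 and 19 of the peaks.

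Nrxn2, on chromosome 19 from 6418756 to 6533217, had 75, 78 and 58 peaks in the order v1, v2, v3, or 0.655, 0.681 and 0.507 per kb of span. Its density per kb of window, 0.603 in v1, was the highest of the 9 genes in that library, and 93.4% of the 1183 genes of like length lay at or below it. In v2 and v3 this share was 80.1% and 75.8%. The transcript Gm14965, a long non-coding RNA, overlaps the lower end of the Nrxn2 span, and 3, 4 and 2 of the peaks lie over it. The flank also reaches Slc22a12, which encodes a urate transporter and shares 3, 4 and 2 peaks with the window. Rasgrp2, on the other side, shares none, and the non-coding Gm52381 inside the gene holds 2, 3 and 3.

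Among the neuroligins, Nlgn1 is the long one. It lies on the reverse strand of chromosome 3, 25421808 to 26332866, and had 503, 575 and 476 peaks in that order, or 0.552, 0.631 and 0.522 per kb of span. Of the 69 genes of like length, 85.5% lay at or below it in v1 and in v2, and 91.3% in v3. Nlgn2, on the reverse strand of chromosome 11 from 69823123 to 69837784, held 11, 12 and 7 peaks. That is 0.750, 0.818 and 0.477 per kb of span, where the flanks add peaks to a span of 14.7 kb. Per kb of window it had 0.446, 0.487 and 0.284 peaks, so that in v3 it stood close to the median of 0.270 for its length. The gene Tmem256 begins or ends 740 bp beyond the Nlgn2 span and has 1 peak in common with its window in each library. Spem1, 957 bp beyond the other end, likewise shares 1 in each, and Spem2, 4635 bp away, shares none. Inside Nlgn1 the pseudogene Gm6197 holds 3 peaks in each library.

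Nlgn3 lies on the X chromosome, 101299179 to 101321350, and had 15, 19 and 17 peaks in the same order, or 0.677, 0.857 and 0.767 per kb of span. The 154 genes of like length on X had medians of 0.0973, 0.189 and 0.102 peaks per kb of window, and Nlgn3 had 0.466, 0.591 and 0.528. It was at or above 98.1% of these X genes in each library. Against genes of like length on all chromosomes this share was 83.0%, 87.3% and 97.4%. Med12, which encodes a subunit of the Mediator complex, ends or begins 244 bp from the Nlgn3 span, and 0, 2 and 2 of the counted peaks lie over it.

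The LRRTM genes differ in size and setting. Lrrtm4, on the forward strand of chromosome 6 from 80018858 to 80810162, had 324, 456 and 355 peaks by version, or 0.409, 0.576 and 0.449 per kb of span. Lrrtm3, on the reverse strand of chromosome 10 from 63928497 to 64090255, held 89, 111 and 89, or 0.550, 0.686 and 0.550 per kb of span. Lrrtm1, at chromosome 6, 77229210 to 77259915, held 15, 18 and 15, or 0.489, 0.586 and 0.489. Lrrtm2, at chromosome 18, 35209003 to 35215024, held 8, 9 and 7, or 1.33, 1.49 and 1.16. The high values of Lrrtm2 come from dividing peaks of a 16.0 kb window by a 6.02 kb span, and per kb of window it had 0.499, 0.562 and 0.437. The non-coding transcripts Gm44240 and Gm32091 lie inside Lrrtm4, with 2, 6 and 6 and with 13, 14 and 11 of its peaks.

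In order of peaks per kb of window the genes changed places between libraries. Nrxn2 was highest in v1, Lrrtm3 in v2 at 0.646 and Nlgn3 in v3. Lrrtm1 was lowest in v1 at 0.368 and in v2 at 0.442, and Nlgn2 was lowest in v3. In each library the counting intervals of all 8 pairs of neighbours in the order overlapped, so the order of neighbours is not resolved. Over longer distances some levels were: in v1, Lrrtm4 at 0.404 (interval 0.362 to 0.451) lay below Nlgn1 at 0.546 (0.499 to 0.596) and Nrxn3 (0.493 to 0.564).

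The genes most alike in density, by Euclidean distance of log2 peaks per kb over the 3 libraries among genes of like length, were Csmd1 for Nrxn3, Atrn for Nrxn2, Nav3 for Nlgn1 and Exoc4 for Lrrtm4. Csmd1 had 938, 1068 and 840 peaks, and Nav3 had 448, 489 and 420. Srpk2 was nearest to Lrrtm3, Brk1 to Nlgn2, Rwdd1 to Nlgn3, Tbpl1 to Lrrtm1 and Nxnl1 to Lrrtm2. Distances ran from 0.0114 to 0.171 log2 units. The number of candidates differed, from 15 for Nrxn3 to 4265 for Lrrtm2.

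A peak lay over every listed start of transcription in each library. Whether the listed starts are used in brain was not tested, and some lie well inside the gene span. RefSeq's table of promoters (GRCm38.p6, the same build) lists 10 starts for 6 of the genes, Nrxn3, Nlgn1, Nlgn2, Lrrtm1, Lrrtm3 and Lrrtm4. Nrxn2, Nlgn3 and Lrrtm2 were read by the ends of their spans. All 10 starts lay under a peak in v1, v2 and v3, against 70.9%, 76.4% and 71.7% of the 21044 listed starts of protein-coding genes. Counted by gene, 6 of 6 had a peak within 1 kb of a listed start in each library, against 77.0%, 81.7% and 76.6% of genes. Nrxn2, Nlgn3 and Lrrtm2 had a peak within 1 kb of each end of their span in all 3 libraries, against 51.9%, 66.0% and 52.5% of protein-coding genes. Not every end was met. Nlgn1 had no peak within 1 kb of its lower end, and Lrrtm1 none within 1 kb of its upper end, in any library.

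The widest peak within 1 kb exceeded 1500 bp at 8 of 10 starts in v1, 8 in v2 and 9 in v3, against 30.3%, 37.3% and 52.5% of all listed starts. The peak over the start base itself exceeded 1500 bp at 7, 5 and 8 of the 10 starts, against 28.2%, 34.2% and 48.9% of all listed starts. Its median width was 1925 bp in v1, 1419 bp in v2 and 2492 bp in v3, against 1362, 1429 and 1762 bp over all covered starts, so in v2 the widths were near those of other genes. At Lrrtm1 the v3 peak over the start was 3836 bp wide, where v1 had peaks of 965, 651 and 1013 bp within 1 kb and v2 had 1652 and 1962 bp. At the upstream Lrrtm4 start 1 peak of 3144 bp in v1 and 3231 bp in v3 stood against 1159 bp in v2. At Lrrtm1, 1 stretch was thus 1 peak in v3 and several in v1 and v2, which a count of peaks takes as a difference in number. The 2 Lrrtm4 starts lie 766 bp apart and share their peak.

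**Figure D2:**
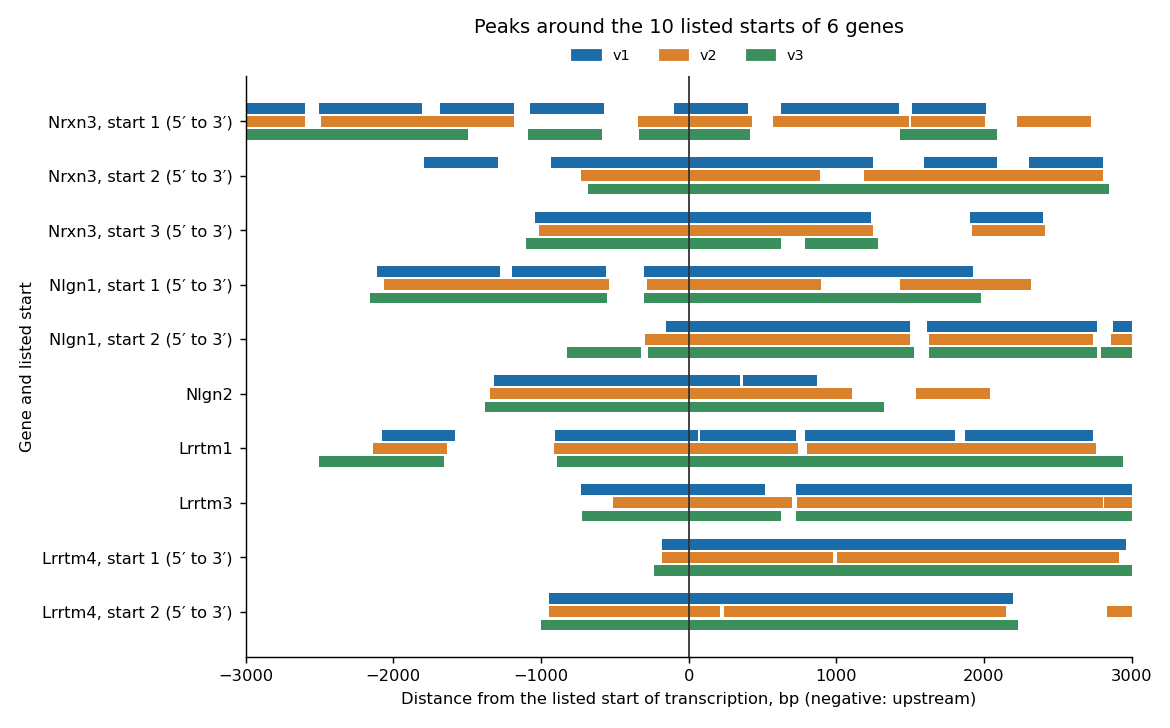
Peaks of v1, v2 and v3 (bars) around the 10 listed starts of 6 genes; the horizontal axis is the distance from the start in bp along the gene's strand. Every start lies under a bar in each library, and Nrxn3 start 1 has the narrowest, 500 bp in v1.

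Nrxn3 has 3 listed starts, 159 kb and 859 kb apart in turn, and they differ in their peaks. The first, 88794504, lies 71.8 kb inside the span. The peak over it was 500 bp wide in v1, 774 bp in v2 and 752 bp in v3. At the second, 88953390, it was 2182, 1624 and 3528 bp. The third, 89812483, had peaks of 2277, 2260 and 1726 bp. The lower end of the Nrxn3 span, 88722701, lay under a peak of 1152 bp in v1, 1514 bp in v2 and 4548 bp in v3. Around it stood the region of the gene with most bases covered in every library, 88721939 to 88728471, with 4554, 5890 and 6291 bp under peaks in v1, v2 and v3. Density differed more between these segments in v1 than in v2 or v3. From the third start to the end of the span there were 0.609, 0.626 and 0.509 peaks per kb by version, and between the second start and the third 0.473, 0.616 and 0.461.

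Both listed Nlgn1 starts, 26331909 and 26153986, 178 kb apart, lay under peaks of 2229, 1183 and 2284 bp and of 1659, 1794 and 1805 bp in v1, v2 and v3. The non-coding transcript A830092H15Rik overlaps the upper end of the gene and shares peaks with the Nlgn1 window, 3 in v1 and 2 in v2 and v3. At Nlgn2 the start 69837784 lay under a peak of 1667 bp in v1, 2453 bp in v2 and 2700 bp in v3.

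The bases before some of the listed starts are shown because they vary in CpG dinucleotides, which are dense in many promoters of widely used genes. Each line gives the 250 bases before a listed start, 5′ to 3′ on the gene's strand, from RefSeq (mm10), with every CG in capitals. The stretches are chr12:88794254-88794503 and chr12:89812233-89812482 for Nrxn3 and chr3:26331910-26332159 for Nlgn1, the latter on the reverse strand. For Nlgn2 and Lrrtm3, also on the reverse strand, they are chr11:69837785-69838034 and chr10:64090256-64090505, and for Lrrtm4 chr6:80018627-80018876.
Nrxn3, first start: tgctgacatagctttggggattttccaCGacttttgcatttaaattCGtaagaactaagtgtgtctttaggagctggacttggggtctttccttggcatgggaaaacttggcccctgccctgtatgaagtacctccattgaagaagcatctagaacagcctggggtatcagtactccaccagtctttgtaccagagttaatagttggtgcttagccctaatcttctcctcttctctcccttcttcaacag
Nrxn3, last start: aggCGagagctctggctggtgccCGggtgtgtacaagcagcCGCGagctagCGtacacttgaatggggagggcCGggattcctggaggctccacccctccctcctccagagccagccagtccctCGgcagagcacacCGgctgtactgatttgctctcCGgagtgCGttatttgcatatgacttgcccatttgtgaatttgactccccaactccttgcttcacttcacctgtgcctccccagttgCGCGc
Nlgn1, upstream start: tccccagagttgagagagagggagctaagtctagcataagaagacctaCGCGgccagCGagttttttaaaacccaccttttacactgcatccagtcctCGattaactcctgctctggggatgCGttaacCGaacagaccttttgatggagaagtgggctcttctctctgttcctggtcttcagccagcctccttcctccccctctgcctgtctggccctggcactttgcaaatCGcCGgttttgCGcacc
Nlgn2: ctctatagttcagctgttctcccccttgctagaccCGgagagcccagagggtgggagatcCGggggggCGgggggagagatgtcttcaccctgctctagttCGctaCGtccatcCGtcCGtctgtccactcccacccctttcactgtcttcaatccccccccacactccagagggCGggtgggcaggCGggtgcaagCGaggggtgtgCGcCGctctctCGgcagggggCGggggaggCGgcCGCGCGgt
Lrrtm3: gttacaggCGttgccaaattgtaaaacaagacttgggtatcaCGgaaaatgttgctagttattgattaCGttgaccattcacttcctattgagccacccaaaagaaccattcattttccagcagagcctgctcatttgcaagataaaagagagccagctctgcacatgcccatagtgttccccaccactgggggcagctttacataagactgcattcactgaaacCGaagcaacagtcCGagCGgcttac
Lrrtm4, upstream start: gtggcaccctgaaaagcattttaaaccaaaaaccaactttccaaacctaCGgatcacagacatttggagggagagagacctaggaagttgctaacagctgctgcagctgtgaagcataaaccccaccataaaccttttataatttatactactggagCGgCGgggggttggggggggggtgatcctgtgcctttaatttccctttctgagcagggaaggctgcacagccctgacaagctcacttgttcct

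Most of the 10 starts had few CpG. Nlgn2 had 18 CpG in its 250 bases and a GC content of 67.6%, the third Nrxn3 start 12, the upstream Nlgn1 start 9, Lrrtm3 6, the upstream Lrrtm4 start 3 and the first Nrxn3 start 2. In all, 8 of the 10 starts had at most 9 CpG, as had 49.4% of all listed starts of protein-coding genes. Among all starts with so few CpG, 44.0%, 53.8% and 45.1% lay under a peak by version, and the 8 starts of these genes did in each library. These shares pool unlike starts. With 0 to 4 CpG they were 29.6%, 39.7% and 30.5%, and with 5 to 9 CpG 73.3%, 82.5% and 74.7%. Of the 8 starts, all but the upstream Lrrtm4 start and the first Nrxn3 start had 5 to 9 CpG, so the higher shares are the nearer background. Among all starts with 20 or more CpG the shares were 98.2%, 99.0% and 98.6%. The first Nrxn3 start, with the fewest CpG, also had the narrowest peak over it in v1, v2 and v3. This listed start lies 71.8 kb inside the span, and a link of CpG to width among the 10 starts was not tested. The upstream Lrrtm4 start, with 3 CpG, had one of the widest in v1 and v3, but that peak also covers the other Lrrtm4 start, with 8 CpG. Over all covered starts with 0 to 4 CpG the median width was 928.5, 1017 and 1330 bp by version. With 20 or more CpG it was 1486, 1588 and 1904 bp.

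Short motifs were searched on both strands of the 250 bases. The GC box GGGCGG was found at 1 of the 10 starts, Nlgn2, against 43.0% of all promoters. This motif holds a CpG, and a comparison with promoters of like CpG number was not made. CCAAT was found at the downstream Nlgn1 start and TATAAA at the upstream Lrrtm4 start, against 35.6% and 11.7% of all promoters. The cAMP response element TGACGTCA, in 1.94% of promoters, and the palindromic NRF1 site, in 1.08%, were at none. None of these motifs contains another, and no match says only that the letters are not in this window.

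Lrrtm1, Lrrtm2 and Lrrtm3 lie inside genes of alpha-catenins, which link cadherins to the actin cytoskeleton, in the order Ctnna2, Ctnna1 and Ctnna3. All peaks of these LRRTM windows, 15, 18 and 15 for Lrrtm1 in v1, v2 and v3, are thus also peaks of the host gene. The Lrrtm3 window was denser than the rest of its host. Its density was 0.518, 0.646 and 0.518 peaks per kb, while the rest of Ctnna3 (chromosome 10, 63430098 to 65003667, with flanks) had 0.171, 0.300 and 0.107. The density was thus 3.04 (interval 2.35 to 3.89), 2.15 (1.73 to 2.66) and 4.84 (3.69 to 6.34) times that of the rest in the 3 libraries. Of the 330, 535 and 240 peaks of the Ctnna3 window, 89, 111 and 89 lay in the Lrrtm3 window, which is 172 kb long and leaves 1412 kb to the rest of the host.

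The other nested genes did not stand apart in this way. For Lrrtm1 in Ctnna2 the density ratio was 0.773 (0.429 to 1.29), 0.734 (0.432 to 1.17) and 0.904 (0.502 to 1.51). Ctnna2 itself held 524, 661 and 450 peaks. For Lrrtm2 in Ctnna1 the ratio was 1.96 (0.784 to 4.34), 0.999 (0.439 to 2.003) and 1.11 (0.426 to 2.46). With 7 to 18 peaks a window, a ratio as large as that of Lrrtm3 in v2 lies inside the interval for Lrrtm2 in v1 and v3 but outside that for Lrrtm1 in all 3 libraries.

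Along the long genes peaks were spread over the whole span. Each span was cut into 10 equal bins. In Nrxn3 the density of the densest bin was 1.57 times that of the sparsest in v1, 1.10 times in v2 and 1.30 times in v3, and in Nlgn1 it was 1.55, 1.35 and 1.35 times. The longest stretch of the Nrxn3 span without a peak was 10350 bp in v1, 7296 bp in v2 and 8882 bp in v3. In v1 and v3 it was nearly the same stretch, beginning at 89592929 and 89593457. In Nlgn1 the longest gap lay at 25469154 to 25479045 in v1, and the gaps of v2, 25470241 to 25479033, and v3, 25471888 to 25479336, overlapped it. Lrrtm4 had longest gaps of 10992, 10734 and 11277 bp.

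Lrrtm3 and Nrxn2 varied more from bin to bin, but their bins are short, 16.2 and 11.4 kb against 161 kb in Nrxn3. Such bins hold few peaks and have a larger relative counting error, and evenness was not compared between genes at like peak numbers. The 5′ bin of Lrrtm3 had 4, 9 and 4 peaks in turn, and its 3′ bin 11, 10 and 14. In v1 and v3 the 5′ bin was the sparsest, although it holds the start peak and, from 724 bp into the gene, a covered region of 3945 bp. By coordinate, bin 4 of Nrxn2 had 2, 5 and 2 peaks, the fewest in v1 and v3, and shared that place with bin 1 in v2. In Lrrtm4 in v3 each of bins 1 to 6 had 31 to 51 peaks and each of bins 7 to 10 had 24 to 30. The same bins had 29 to 37 and 27 to 33 in v1, and 41 to 51 and 40 to 49 in v2. There the ranges overlapped.

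**Figure D3:**
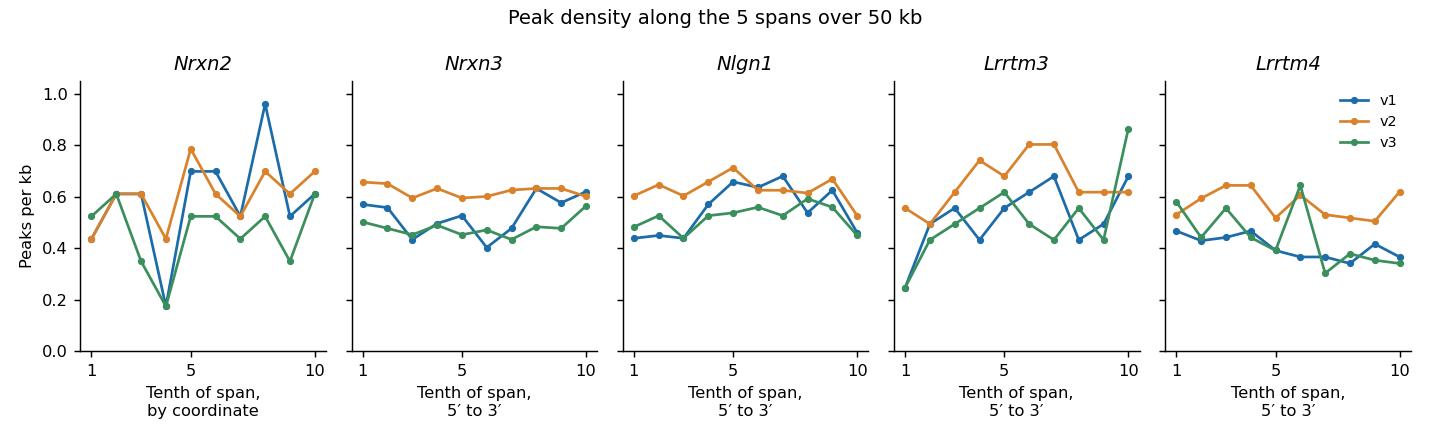
Peaks per kb (vertical axis) in each of 10 bins of the span of the 5 genes over 50 kb, for v1, v2 and v3; Nrxn2 is drawn by coordinate and the others 5′ to 3′. In Nrxn3 and Nlgn1 the densest bin has at most 1.57 times the density of the sparsest. The Lrrtm3 line, with few peaks a bin, starts low in v1 and v3.

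Peaks over 1500 bp numbered 122 (v1), 219 (v2) and 308 (v3), or 6.43%, 9.58% and 17.1% of the peaks of the 9 windows, near the 7.05%, 9.69% and 18.9% of all protein-coding windows. Of them 91.8%, 94.1% and 94.8% were more than 1 kb from any listed start or span end of the gene. Over all protein-coding windows that share was 70.7%, 77.4% and 76.0%, and over those of genes longer than 50 kb it was 84.6%, 89.0% and 88.8%. The share was thus higher for longer genes, and a comparison at like length was not made. Regions were ranked by the bases covered in the library that covers least. The first in Nlgn1, 25513959 to 25518385, had its centre 94364 bp from the nearest end of the gene and 4064, 3965 and 4398 bp under peaks in v1, v2 and v3. In Lrrtm4 it was 80294552 to 80298803, 274909 bp from the nearest listed start, with 3941, 3729 and 3544 bp. In Nrxn2 it was 6471877 to 6477680, with 4649, 4249 and 3666 bp. In Lrrtm1, at 77241567 to 77245418, it held the listed start, with 3497, 3614 and 3836 bp. The first regions of Nrxn3 and Nlgn2 lay over the lower end of the span, and that of Nlgn3 over the upper end. For Lrrtm3 it lay 724 bp from the listed start, and for Lrrtm2 its centre was 1562 bp from the nearest end. The median width of all peaks in the 9 windows was 500 bp in v1, 565 bp in v2 and 751 bp in v3, close to the 500, 531 and 769 bp of all protein-coding windows.

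Peaks of the 3 lists were merged into regions to see which stretches all libraries share. Of 2020 regions in the 9 windows, 1122 were shared by all 3 libraries, or 55.5% (interval 53.3 to 57.7). Over all protein-coding windows this share was 46.4%. Taken by gene, all 9 had a higher share than the median gene of like length, where 46.5% of genes do. Lrrtm3 had the highest share, 67.8% (56.9 to 77.4) of 87 regions, against a median of 46.8% for its length. Nlgn1 had 61.4% (57.1 to 65.7) of 511 and Nrxn3 55.7% (52.4 to 59.04) of 888, against 42.9% and 39.0%. Nrxn2 had 59.7% (46.4 to 71.9) of 62. Lrrtm4 had the lowest, 44.1% (39.3 to 49.0) of 422, close to the 42.8% of genes of its length, and its interval did not overlap those of Nlgn1, Nrxn3 and Lrrtm3. The small genes had wide intervals, as Nlgn2 with 6 of 10 regions, 60.0% (26.2 to 87.8).

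Regions that only v2 showed made up 13.3% of the pooled regions of the 9 windows (11.9 to 14.9) and 21.2% of all. The pooled share mostly describes the long genes Nrxn3, with 116 of 888 regions, Nlgn1, with 56 of 511, and Lrrtm4, with 68 of 422. Nrxn2 had 9 of 62 and Lrrtm3 10 of 87. The small genes did not show a lower share on their few regions. Nlgn2 had 2 of 10, Nlgn3 3 of 16, Lrrtm1 3 of 15 and Lrrtm2 2 of 9. For regions of 1 library a comparison at like length was not made. Regions of v3 alone made up 8.22% (7.06 to 9.502) against 7.02%, and those of v1 alone 2.08% (1.503 to 2.80) against 3.42%. Of the regions in 2 libraries, v1 and v2 shared 10.5%, v2 and v3 8.66%, and v1 and v3 1.68%, against 13.1%, 7.37% and 1.38% over all windows. The widest region of v3 alone was 80268530 to 80270803 in Lrrtm4, a single peak of 2274 bp, and the next was 26211799 to 26213805 in Nlgn1, of 2007 bp. The widest of v2 alone, of 1816 bp, reached into the Nlgn3 flank at 101292493 to 101294308 and lies over Med12. In Nrxn3 the stretch 89978732 to 89981122 had 1500 bp under peaks in v1 and 2364 bp in v2 and none in v3, and 89402039 to 89404604 had 1670 bp in v2 and 2369 bp in v3 and none in v1.

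**Figure D4:**
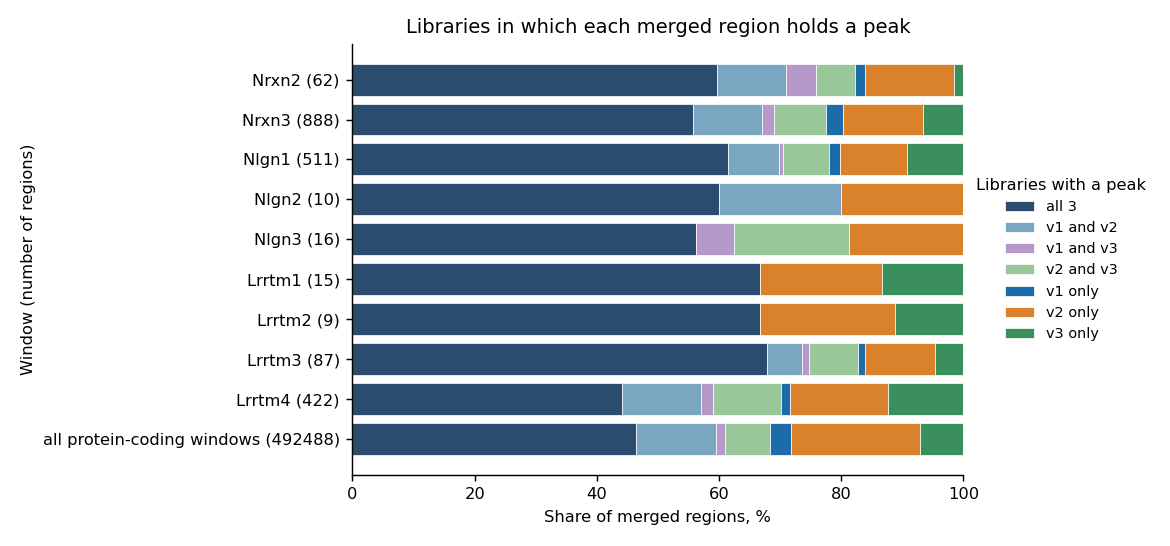
Share of merged regions (horizontal axis, %) by the libraries with a peak in them, for each window and for all protein-coding windows; the number of regions stands in brackets. The bar for all 3 libraries is longest for Lrrtm3, at 67.8%, and shortest for Lrrtm4, at 44.1%.

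Between libraries the genes were compared by the share ratio, the gene's peaks as a share of all peaks of a library over the same share in the other. None of the 9 genes reached a ratio of 1.5 or fell to 1/1.5 in any pair. Among the 9710 protein-coding genes whose 3 peak numbers sum to at least 30, 10.1% did in v2 over v1, 16.2% in v3 over v1 and 18.1% in v3 over v2. Of the 9 genes, 8 passed that minimum and Lrrtm2, with 24 peaks, did not. The median gene had a log2 share ratio of -0.09 in v2 over v1, 0.09 in v3 over v1 and 0.19 in v3 over v2, that is a ratio of 0.937, 1.07 and 1.14, and the genes are read against these.

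In v2 over v1 the median ratio of the 9 genes was 0.862. The ratio was below 1 for 8 of the 9 genes, against 61.2% of all genes, with 38.8% above 1, and 8 of the 9 lay below the median gene. Nrxn3 had 0.862 (0.786 to 0.945) and Nlgn1 0.837 (0.741 to 0.945). Both intervals excluded 1 and included the ratio of the median gene. The lowest was Nrxn2 at 0.761 (0.547 to 1.06). Lrrtm4 was the gene above 1, at 1.03 (0.891 to 1.19).

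In v3 over v1 the median was 1.15, with 7 genes above 1, against 61.2% of all genes, 2 below, against 38.8%, and 6 above the median gene. Lrrtm4 had 1.33 (1.14 to 1.55), an interval above the median gene of 1.07. Nlgn1 had 1.15 (1.01 to 1.31) and Nrxn3 1.11 (1.002 to 1.22), which include it. Among peaks wider than 500 bp the Nrxn3 ratio was 1.001. Nlgn2 had 0.774 (0.254 to 2.19) on 7 and 11 peaks, and 1.27 among peaks wider than 500 bp, so its direction turned. Nrxn2 was the other gene below 1, at 0.941 (0.656 to 1.34).

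In v3 over v2 the median was 1.29, with 8 genes above 1, against 68.6% of all genes, 1 below, against 31.4%, and 8 above the median gene. Nlgn1, at 1.38 (1.22 to 1.56), and Nrxn3, at 1.28 (1.17 to 1.41), had intervals above the 1.14 of the median gene, while that of Lrrtm4, at 1.29 (1.12 to 1.49), reached it. Nlgn3 had the highest ratio, 1.49 (0.726 to 3.02), on 17 and 19 peaks, and 0.898 among peaks wider than 500 bp, so its direction turned. Lrrtm3 had 1.33 (0.997 to 1.78) and Lrrtm1 1.39 (0.650 to 2.91). Nlgn2 had 0.970 (0.323 to 2.67). The 3 pairs share their libraries, so they are not separate evidence. The intervals of the 4 genes with 7 to 19 peaks a library, Nlgn2, Nlgn3, Lrrtm1 and Lrrtm2, reached above 1.5 in every pair. A difference of that size in them was thus not detectable at these peak numbers. Those of Nrxn2, Nlgn1 and Lrrtm3 also reached above 1.5 in v3 over v2, and those of Lrrtm3 and Lrrtm4 in v3 over v1. The Nrxn2 interval reached below 1/1.5 in v2 over v1 and in v3 over v1.

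**Figure D5:**
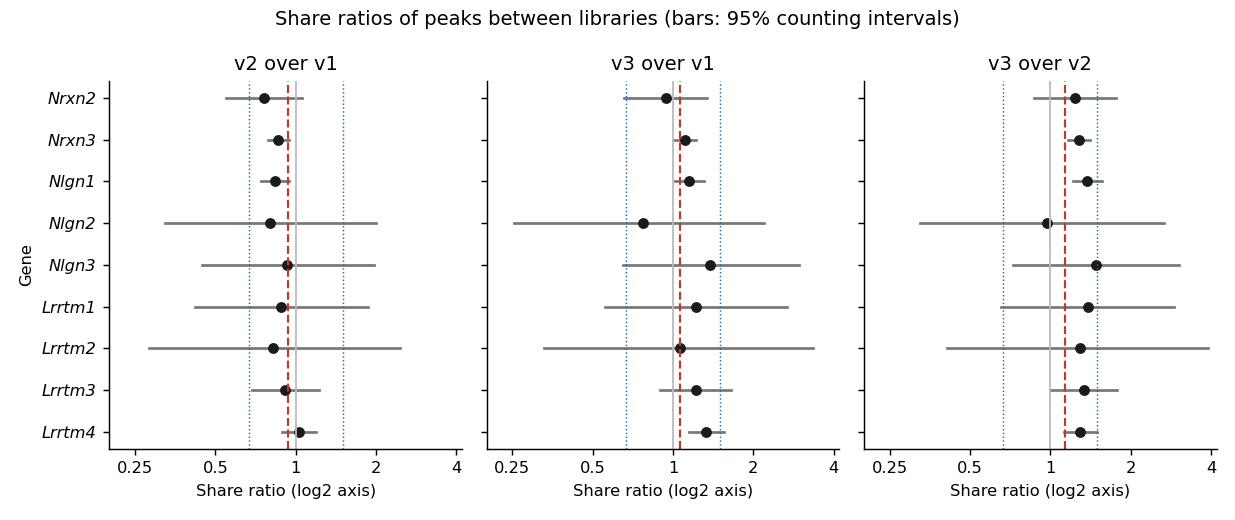
Share ratios (log2 axis) of the 9 genes for v2 over v1, v3 over v1 and v3 over v2, with 95% counting intervals; the dashed line is the median gene and the dotted lines are 1.5-fold either way. No dot passes a dotted line, and the dots for v3 over v2 lie right of the dashed line except that of Nlgn2.

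Genes of proteins that work with neurexins, neuroligins and LRRTMs were read in the same way, from a list of 25. Neurexophilins (Nxph1 to Nxph4), cerebellins and C1q-like proteins bind neurexins outside the cell, Cask and the Apba proteins inside it. In v1 20 of the 25 genes, in v2 13 and in v3 18 had more peaks per kb of window than the median gene of like length, against 50.3%, 50.5% and 50.4% of all genes. The v2 count, 52.0%, is near that share. Magi2, which encodes a scaffold protein that binds neuroligins, had the most, 721, 817 and 561 peaks, followed by Mdga2, whose product covers neuroligins from neurexins, with 410, 438 and 330. Cbln4, a cerebellin gene, had the fewest, 3, 1 and 3.

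Of these 25 genes 17 had at least 30 peaks summed. In v2 over v1 none was at or above 1.5 and 1 was at or below 1/1.5, against 6.87% and 3.26% of all genes. That gene was Nxph1, with 168, 134 and 100 peaks in v1, v2 and v3 and a ratio of 0.584 (0.462 to 0.737). In v3 over v1, 1 was at or above 1.5, against 11.3% of all genes, and none below, against 4.94%. It was Thbs1, which encodes the secreted protein thrombospondin 1, at 2.09 (0.757 to 6.25) on 12 and 7 peaks. In v3 over v2, 2 were at or above, against 11.9%, and none below, against 6.23%. They were Cask, a membrane-associated kinase that binds the neurexin tail, at 1.51 (1.22 to 1.86), and again Thbs1, at 1.53 (0.640 to 3.65). All 17 had a ratio above 1 in v3 over v2, against 68.6% of all genes. Their median was 1.21, against 1.29 for the 9 genes and 1.14 for the median gene. In v3 over v1, 9 of the 17 were above 1, against 61.2% of all genes, and in v2 over v1 2 were, against 38.8%.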

How the data were processed

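Peaks of 3 single-cell ATAC-seq libraries of mouse whole brain were analysed. The other values are positions: each deposited list gives chromosome, start and end of each peak, with no score or read count. ArchR and MACS2 and the build mm10 are named per the submitters' processing notes. For the aligner, versions and calling threshold: not given in the sources used here. In each list the narrowest peak is 500 bp wide. Whether a peak is exonic or intronic was not analysed here.

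Peaks overlapping a gene window (span of GRCm38.p6 plus 5 kb) by at least 1 bp were counted. Share ratios have exact conditional binomial intervals, shares Clopper-Pearson and densities Poisson intervals, all 95%. All treat peaks as independent counts, though 55.5% of the merged regions of the 9 windows hold a peak in all 3 libraries. How far this changes the width of the intervals was not tested. Log2 ratios over all genes used a pseudocount of 0.5 peaks scaled to the library, and log2 densities one of 0.5 peaks. A ratio of 1.5 or 1/1.5 was called. Python 3.11.15, numpy 2.4.6, pandas 2.3.3 and scipy 1.17.1 were used; the counting was tested on simulated data.

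The members and lists were chosen with earlier results of these data known. The text names all members, the genes whose spans hold, overlap or flank them within 5 kb, and of the partner list the 2 genes with most peaks, the 1 with fewest and those past 1.5-fold. For each member it names the gene of like length nearest in density. Sequences of the promoter table were checked for strand: 1672 of 1672 overlapping windows on opposite strands were reverse complements. Precision is limited by the number of peaks, since depth is unknown. Shares over all genes for wide peaks, and for shared regions in other settings, were added after the data were seen. Alternatives are given in the closing section.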

Additional observations from a re-analysis of the deposited data

How the results depend on the processing

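No paired analysis was possible because each version has 1 library. The number of the 9 genes past 1.5-fold, 0 in each pair, changed with some settings. Among peaks wider than 500 bp it was 1 in v2 over v1 (Lrrtm1, lower) and 2 in v3 over v2 (Lrrtm1 and Lrrtm2, higher). With gene spans alone, with peak midpoints and with covered length it was 1 in v3 over v2 (Nlgn3, Nlgn3 and Lrrtm1, higher), and with 20 kb flanks 1 in v3 over v1 (Lrrtm2, higher). Each of these genes holds few peaks. Of all genes, 19.9% and 19.6% were past 1.5-fold among peaks wider than 500 bp in those pairs, 20.9%, 18.4% and 14.6% with spans, midpoints and covered length, and 12.6% with 20 kb flanks. Centred on the median gene the number was 0 in each pair. With 20 kb flanks 6 of the 9 ratios were below 1 in v2 over v1, and 8 were in the other settings. Of 162 ratios of single genes under these settings, 15 crossed 1, 13 of them of Nlgn2, Nlgn3, Lrrtm1 or Lrrtm2 and the others of Lrrtm4 in v2 over v1. Moves over 1.5 times were those of Lrrtm2 with 20 kb flanks, to 1.46 in v2 over v1 and 1.96 in v3 over v1, and, among peaks wider than 500 bp, of Lrrtm1 to 0.565 in v2 over v1, Nlgn2 to 1.27 in v3 over v1 and Nlgn3 to 0.898 in v3 over v2. The directions of these 4 genes are thus not settled. Their intervals are wide, so few values could leave them, and 3 of the 162 did, those of Nrxn3 and Nlgn1. Nrxn3 in v3 over v1 fell from 1.11 to 1.001 among peaks wider than 500 bp. The others were Nrxn3 at 1.13 and Nlgn1 at 1.21 in v3 over v2 when centred on the median gene, which rescales all ratios of a pair alike. The share of regions with a peak in all 3 libraries was 43.6% where each library had to cover 50% of the region and 45.1% among peaks wider than 500 bp, against 35.7% and 40.9% over all windows in those settings. With gene spans alone it was 55.6% against 46.9%. All 9 genes had a peak at a start or end within 500 bp and among peaks wider than 500 bp. The number of genes denser than those of like length stayed between 7 and 9 in every library and setting run. The comparison of Nlgn3 with X genes was added after the data were seen.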
